A study of Mus musculus with 18 samples.

Results

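Ccr1, Ccr2, Ccr7 and Cxcr4, 4 receptors through which leukocytes follow chemokines, were described in the hearts of mice that carry a cardiac-specific tumour necrosis factor alpha (TNF) transgene. They were found by their gene symbols in the array's platform annotation. Each was measured by 1 probe set, so the 4 receptors were 4 of 12422 probe sets and 4 of 8251 named genes. Total RNA of mouse heart had been hybridised to Affymetrix U74Av2 oligonucleotide arrays, and the deposited value is a signal per probe set on a linear scale. The control strain was FVB, without the transgene, and was measured at 3 weeks of age in females and in males. TNF transgenic hearts were measured at 3 weeks in females and in males, at 13 weeks in males and at 40 weeks in females. No FVB array was older than 3 weeks, so age and the duration of transgene expression cannot be told apart. The 13 week group held only males and the 40 week group only females. The labels name neither the promoter of the transgene nor the transgenic line, and do not say which arrays are separate animals. P-values therefore reflect the spread among these arrays only, part of which may be technical.

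The table held 18 columns. FVB female replicates 1 and 2 carried identical values and were counted as 1 array, named here FVB female 1, which left 17 distinct arrays: 2 FVB females and 3 in each of the other 5 groups. That array stood apart, with a Spearman correlation of 0.767 to 0.850 with the other arrays, where 7.33% of its probe sets lay at or under the floor defined below against 23.7% to 28.3% on the other arrays. The arrays labelled FVB male 1 and FVB male 2 gave Xist, a transcript of the inactive X chromosome of females, a signal of 1381 and 2706, against 5.9 on FVB male 3. The arrays were unlike in the Y-linked genes: Eif2s3y and Uty read 298.7 and 129.7 on FVB male 1, 67.4 and 16.9 on FVB male 2, and 544.9 and 228 on FVB male 3. FVB male 1 thus carried both kinds of signal. The sex of these samples is uncertain, and the main differences at 3 weeks are given also without the 3 doubted FVB arrays (FVB female 1 and FVB males 1 and 2). Tnf itself read 12.5 to 124.9 on the FVB arrays and 5476 to 12082 on the transgenic arrays. Signals under 44.675, the 25th percentile of all values, were set to that floor before log2 values were taken.

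Chemokine receptors are G protein-coupled receptors that span the cell membrane and turn a gradient of secreted chemokine into directed cell movement. Ccr1 and Ccr2 are carried mainly by monocytes and other myeloid cells, and Ccr2 with its ligand Ccl2 brings inflammatory monocytes from bone marrow and blood into tissue, the injured heart included. Cxcr4, the receptor of Cxcl12, is carried by most leukocytes, by progenitor cells and by some endothelial cells, and Ccr7 guides dendritic cells and T cells to lymph nodes.

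Ccr1 and Ccr2 lie on mouse chromosome 9 of the GRCm38.p6 assembly, at chr9:123962126-123968692 and chr9:124101918-124109140, in the same chemokine receptor cluster. Cxcr4 lies at chr1:128588199-128592299 and Ccr7 at chr11:99144199-99155077. The 250 bases before the start of Ccr1 and of Cxcr4 are shown because both genes were higher in the transgenic hearts and TNF acts in part through NF-kappaB. They come from RefSeq (GRCm38.p6), lie on the minus strand and are written 5′ to 3′ as the gene reads. The Ccr1 window is chr9:123968693-123968942, with the single match to the NF-kappaB (kappaB) consensus in capitals, 74 to 65 bases before the start. The Cxcr4 window is chr1:128592300-128592549, with 3 matches to GGGCGG on the opposite strand, at 95 to 90, 75 to 70 and 50 to 45 bases, and the TATAAA matches at 32 to 25 bases before the start in capitals.
Ccr1: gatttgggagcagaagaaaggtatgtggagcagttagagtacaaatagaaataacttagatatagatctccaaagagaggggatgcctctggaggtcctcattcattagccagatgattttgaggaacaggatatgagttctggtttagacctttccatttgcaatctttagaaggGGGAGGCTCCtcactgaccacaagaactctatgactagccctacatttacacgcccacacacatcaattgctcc
Cxcr4: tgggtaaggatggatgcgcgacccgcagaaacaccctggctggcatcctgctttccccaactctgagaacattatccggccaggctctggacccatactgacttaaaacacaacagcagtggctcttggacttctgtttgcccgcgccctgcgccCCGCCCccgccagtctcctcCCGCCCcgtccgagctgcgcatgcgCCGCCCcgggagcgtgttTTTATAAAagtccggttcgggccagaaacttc
Both strands were searched. The kappaB consensus was present in 7.25% of 32851 upstream windows of the same length, GGGCGG, the letters of a GC box, in 32.7%, and TATAAA, the letters of a TATA box, in 12.4%. In Cxcr4 TATAAA matched on both strands in overlapping letters. AGGAAG, the letters of an ETS site, present in 29.5% of windows, had no match in either window, and the kappaB consensus had none in the Cxcr4 window. A match, or its absence, describes these letters in this window only.

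Ccr2 showed the largest difference of the 4 receptors. On the FVB females its signal was 43.4 and 64.5, and on the FVB males 58.8, 46.7 and 44.5. The transgenic females of 3 weeks read 393, 274.8 and 324.5, and the males 419, 557.5 and 586.3. All 6 transgenic arrays of 3 weeks were above all 5 FVB arrays, as 14.5% of the tested probe sets were, and the lowest was 4.26 times the highest FVB array. The mean signal of the FVB arrays was 51.6 ± 9.49 (SD, n = 5), and that of the transgenic arrays of 3 weeks was 426 ± 124 (SD, n = 6). In limma's fit Ccr2 was higher by 2.99 on the log2 scale (SE 0.17, 95% interval 2.63 to 3.35, adjusted p = 1.1e-09), which is 7.95-fold. FVB hearts had 2 of 5 arrays at the floor, so the size depends on the floor, and it was 1.85 with the floor at the 40th percentile. Without the 3 doubted FVB arrays the difference was 2.94 (limma adjusted p = 3.1e-07).

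Cxcr4 was low but measurable in FVB hearts and clearly raised in transgenic ones. Its signal was 76.4 and 109.2 on the FVB females and 118.5, 133.5 and 91.7 on the FVB males. On the transgenic arrays of 3 weeks it was 548, 422.5 and 493.0 in females and 598, 681.8 and 523.2 in males. The groups did not overlap, with the lowest transgenic array 3.16 times the highest FVB array. Of the tested probe sets, 14.5% were likewise higher without overlap. The means were 106 ± 22.4 (SD, n = 5) and 544 ± 89.1 (SD, n = 6), and the fitted log2 difference was 2.40 (SE 0.16, 95% interval 2.06 to 2.75, limma adjusted p = 1.1e-08), or 5.29-fold. No FVB array lay at the floor, and without the 3 doubted arrays the difference was 2.43 (limma adjusted p = 9.7e-07).

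Ccr1 rose less, and its groups overlapped by a single array. FVB females read 103 and 77.1, and FVB males 56.6, 56.4 and 62.8. Transgenic females of 3 weeks read 217.6, 97.9 and 129, and males 202.5, 216.5 and 291.9. The transgenic female at 97.9 lay under the outlying FVB female 1 at 103, and the other 5 transgenic arrays lay above every FVB array. Ranked within their own arrays, 97.9 stood at 38.3% of probe sets and 103 at 26.7%. Means were 71.2 ± 19.7 (SD, n = 5) and 193 ± 69.5 (SD, n = 6), with a log2 difference of 1.33 (SE 0.22, 95% interval 0.86 to 1.79, limma adjusted p = 0.00015), or 2.51-fold. Without the 3 doubted arrays the difference was 1.38. With all arrays and the floor at the 40th percentile (114), under which all 5 FVB arrays lay, it was 0.70, so its size depends on the floor.

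Ccr7 stayed close to background. FVB arrays read 63.9 and 11 in females and 39.7, 9 and 4.7 in males, and transgenic arrays of 3 weeks read 64.5, 40.8 and 63.8 in females and 41.3, 75 and 87.6 in males. The transgenic males of 13 weeks read 79, 79.4 and 65.2 and the females of 40 weeks 70.1, 41.5 and 52.6. Thus 7 of 17 arrays were at or under the floor, 4 of them among the 5 FVB arrays, and the highest value of all was 1.96 times the floor. By the rule that a probe set is near background when at least 50% of the arrays of every group lie at or under the floor, none of the 4 receptors was near background, and Ccr7 came closest.

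Ccr7 ranked at 26.5% of all probe sets by mean log2 signal and so was not among the 7453 brightest probe sets (60%) that were tested. An exact two-sided permutation test over the 5 FVB and 6 transgenic arrays of 3 weeks gave a log2 difference of 0.36 (p = 0.156). On log2 of signal plus 50, without a floor, the same exact permutation test gave 0.61 (p = 0.0216), so for Ccr7 the call depends on how values around the floor are treated. When all probe sets were fitted, the difference was 0.33 (SE 0.19, limma adjusted p = 0.177). In that fit males alone differed by 0.57 (limma adjusted p = 0.157) and females by 0.09 (limma adjusted p = 0.855). All 3 FVB males and 1 of the 3 transgenic males of 3 weeks were at the floor.

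**Figure D1:**
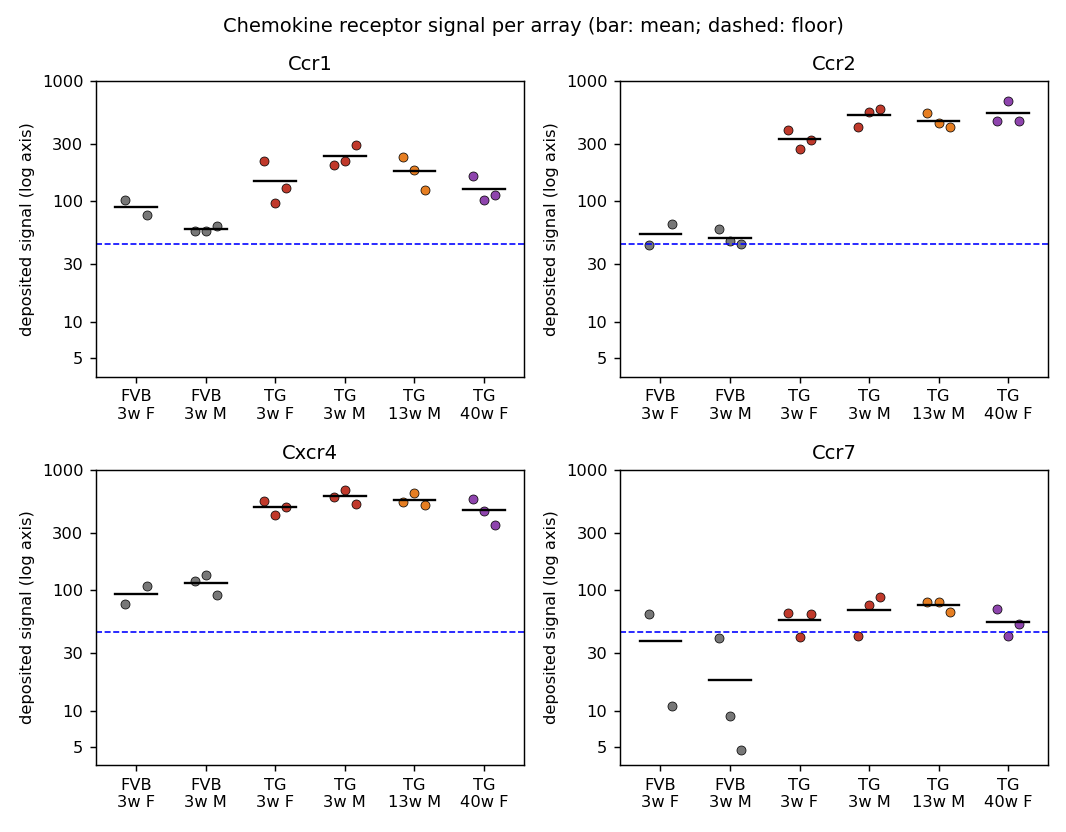
Deposited signal of Ccr1, Ccr2, Cxcr4 and Ccr7 on each of the 17 distinct arrays (points, log axis) by group, with the group mean as a bar and the floor of 44.675 as a dashed line (TG, TNF transgenic; F, female; M, male; w, weeks). Ccr2 and Cxcr4 show no overlap between FVB and transgenic arrays, as 10.3% of tested probe sets were higher without overlap. Ccr1 overlaps only at FVB female 1, and Ccr7 stays between 4.7 and 87.6 around the floor.

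In total, 3 of the 4 receptors were tested and all 3 were called higher, against 24.7% of the 7453 tested probe sets called higher and 21.9% called lower. Their median log2 difference was 2.40, against -0.0065 over all tested probe sets. The filter itself leaned on the transgenic arrays: ranked on FVB arrays alone, Ccr1, Ccr2 and Cxcr4 would stand at 29.6%, 14.7% and 39.1% and none would have passed, whereas on transgenic arrays alone they stood at 47.2%, 68.9% and 72.2%. The count of 3 is therefore a description. With no filter, 3 of the 4 receptors were called higher, against 15.2% of the 12422 probe sets. Ccr2 and Cxcr4 had no overlap between FVB and transgenic arrays of all ages, where 10.3% of tested probe sets were likewise higher without overlap.

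Within each labelled sex, Ccr2 and Cxcr4 were called higher in both. In females Ccr2 was higher by 2.61 (SE 0.25, limma adjusted p = 1.8e-06) and Cxcr4 by 2.41 (SE 0.25, limma adjusted p = 3.3e-06). Ccr1 differed by 0.65 in females (SE 0.33, 95% interval -0.04 to 1.34, limma adjusted p = 0.13) and was not called, but it was called after quantile normalisation (1.25, limma adjusted p = 0.0102) and without transgenic female 2 (0.91, limma adjusted p = 0.0486). So 2 of 3 tested receptors were called higher in females, against 19.4% of probe sets. In males all 3 were called higher, against 16.9% of probe sets: Ccr2 by 3.37 (SE 0.22, limma adjusted p = 1.6e-08), Cxcr4 by 2.40 (SE 0.22, limma adjusted p = 6.2e-07) and Ccr1 by 2.0 (SE 0.29, limma adjusted p = 7.2e-05). Without the 3 doubted FVB arrays, which leaves 1 FVB array of each labelled sex, the differences were 2.34 for Ccr2, 2.15 for Cxcr4 and 0.86 for Ccr1 in females and 3.53, 2.70 and 1.90 in males, and no call changed.

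The female minus male difference of the transgene effect was tested directly. It was -1.35 for Ccr1 (SE 0.44, 95% interval -2.27 to -0.42, limma adjusted p = 0.184), -0.77 for Ccr2 (SE 0.34, 95% interval -1.48 to -0.05, limma adjusted p = 0.274) and 0.0089 for Cxcr4 (SE 0.33, 95% interval -0.69 to 0.71, limma adjusted p = 0.991). Without the 3 doubted FVB arrays it was -1.04 for Ccr1, -1.19 for Ccr2 and -0.55 for Cxcr4 (limma adjusted p = 0.718, 0.555 and 0.793). None was called, and limma called 0 of the 7453 probe sets (0.0%), although 1228 of them (16.5%), with Ccr1 and Ccr2 among them, had an unadjusted p under 0.05. Without FVB female 3, which leaves FVB female 1 as the only FVB female, the Ccr1 difference was -1.56 (limma adjusted p = 0.0403) and 1490 probe sets were called. On the arrays themselves, Ccr2 in all 3 transgenic males of 3 weeks (419 to 586.3) was above all 3 transgenic females (274.8 to 393), a pattern that 7.72% of tested probe sets shared, while for Ccr1 and Cxcr4 the sexes overlapped.

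**Figure D2:**
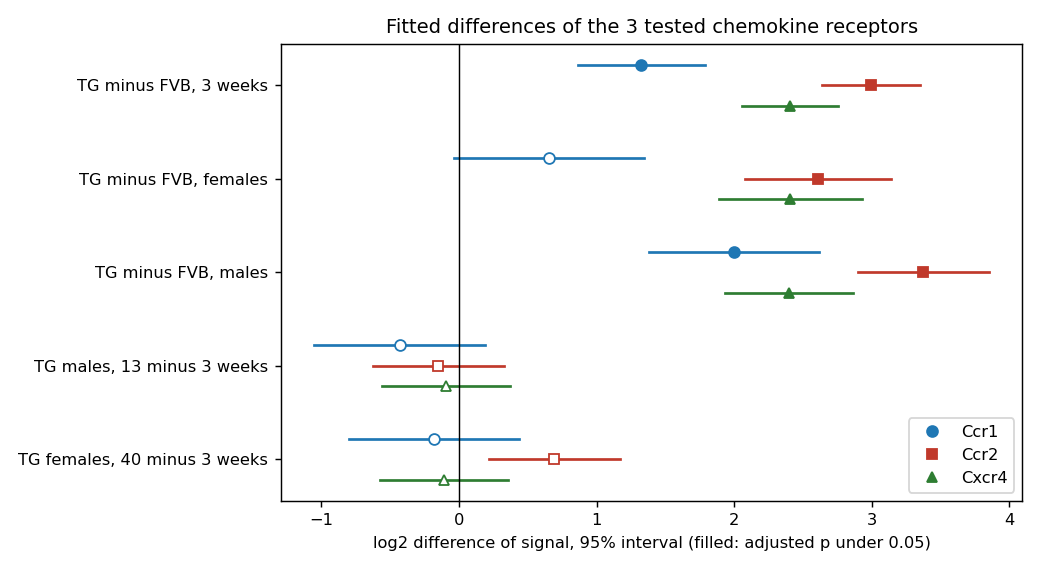
Fitted log2 differences of Ccr1, Ccr2 and Cxcr4 with 95% intervals for the transgene comparison at 3 weeks, pooled and by labelled sex, and for the changes with age among transgenic hearts (filled symbols, adjusted p under 0.05 in limma). The transgene differences lie between 0.65 and 3.37 and those with age between -0.43 and 0.69, with every age comparison open and, in the transgene comparisons, only Ccr1 in females open.

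In the older transgenic hearts Ccr2 and Cxcr4 were above every FVB array, and Ccr1 was so on all arrays but 1. In males of 13 weeks Ccr2 read 541.9, 447.2 and 412.6, Cxcr4 540.5, 636.7 and 510.1, and Ccr1 231.8, 182.1 and 123.4. In females of 40 weeks Ccr2 read 463.6, 685.4 and 464.6, Cxcr4 575.7, 454 and 349.2, and Ccr1 163.4, 101.9 and 113.8. The exception was the Ccr1 value of 101.9 in a 40 week female, which lay under the 103 of FVB female 1. Ranked within their own arrays, 101.9 stood at 38.4% of probe sets and 103 at 26.7%.

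From 3 to 13 weeks in transgenic males no tested receptor was called, against 0.523% of probe sets. The log2 change was -0.43 for Ccr1 (95% interval -1.05 to 0.19, limma adjusted p = 0.797), -0.15 for Ccr2 (95% interval -0.63 to 0.32, limma adjusted p = 0.954) and -0.09 for Cxcr4 (95% interval -0.56 to 0.37, limma adjusted p = 0.979). None of the 3 had an unadjusted p under 0.05, which 8.61% of probe sets had. From 3 to 40 weeks in transgenic females none was called either, against 0.671% of probe sets. Ccr2 changed by 0.69 (SE 0.22, 95% interval 0.22 to 1.17, limma adjusted p = 0.274), Ccr1 by -0.18 (95% interval -0.80 to 0.44, limma adjusted p = 0.939) and Cxcr4 by -0.11 (95% interval -0.57 to 0.36, limma adjusted p = 0.951). All 3 females of 40 weeks were above all 3 of 3 weeks in Ccr2, which 9.49% of tested probe sets shared, and with array weights in limma Ccr2 was called (0.97, adjusted p = 0.0016) along with 803 probe sets in all. The difference between the changes to 40 and to 13 weeks, in which sex and age cannot be told apart, was 0.84 for Ccr2 (SE 0.32, limma adjusted p = 0.9997), 0.25 for Ccr1 and -0.01 for Cxcr4. Here 0 probe sets were called (0.0%), and 214 (2.87%), Ccr2 among them, had an unadjusted p under 0.05 in limma.

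By mean signal the order of the groups differed between receptors. For Ccr2 it ran from FVB males (50 ± 7.70, n = 3) and FVB females (54.0 ± 14.9, n = 2), which overlapped, to transgenic females of 3 weeks (331 ± 59.3, n = 3), then males of 13 weeks (467 ± 66.9, n = 3), males of 3 weeks (521 ± 89.4, n = 3) and females of 40 weeks (538 ± 128, n = 3), the last 3 of which overlapped. The transgenic females of 3 weeks overlapped with no other group in Ccr2. For Cxcr4 FVB females (92.8 ± 23.2, n = 2) and FVB males (115 ± 21.2, n = 3) overlapped, and so did each neighbouring pair among the transgenic groups, from females of 40 weeks (460 ± 113, n = 3) and of 3 weeks (488 ± 62.9, n = 3) to males of 13 weeks (562 ± 66.1, n = 3) and of 3 weeks (601 ± 79.3, n = 3). For Ccr1 FVB males (58.6 ± 3.64, n = 3) were lowest, followed by FVB females (90.1 ± 18.3, n = 2), transgenic females of 40 weeks (126 ± 32.6, n = 3) and of 3 weeks (148 ± 62.1, n = 3), and males of 13 weeks (179 ± 54.3, n = 3) and of 3 weeks (237 ± 48.1, n = 3); all neighbours overlapped except the FVB sexes. Ccr7 means ran from 17.8 ± 19.1 (n = 3) in FVB males to 74.5 ± 8.09 (n = 3) in transgenic males of 13 weeks.

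Of 20 other chemokine receptors listed, 16 had a probe set with 1 symbol and 6 of these were tested. In transgenic hearts of 3 weeks 3 of the 6 were called higher and 0 lower, against 24.7% and 21.9% of all tested probe sets, and the median difference was 0.53. On FVB arrays alone 4 of the 6 would have passed the filter, so these counts are a description. By labelled sex, 0 of the 6 were called in females, and in males Ccr6, Cxcr3 and Xcr1 were called higher and Ackr3 lower (-0.69, limma adjusted p = 0.0277). Of all tested probe sets, 19.4% were called higher in females and 16.9% in males. The sex difference of the effect was called for 0 of the 6. The female comparison rests on 2 FVB arrays, FVB female 1 among them. In females Cxcr3 differed by 0.18 and Xcr1 by 0.31, neither called. Ccr6, a receptor of lymphocytes and dendritic cells, was higher by 2.21 (SE 0.45, limma adjusted p = 0.00088), from 24.1 to 134.3 in FVB to 68.7 to 472.3 in transgenic hearts of 3 weeks, and by 2.58 (limma adjusted p = 0.0053) without the 3 doubted FVB arrays. Cxcr3, a receptor of activated T cells, was higher by 1.38 (SE 0.42, limma adjusted p = 0.0148), although FVB female 1 read 523.8 where the other FVB arrays read 36.1 to 61.5; without FVB female 3 the difference was 0.49 (limma adjusted p = 0.0591), and without the 3 doubted FVB arrays, FVB female 1 among them, it was 2.26 (limma adjusted p = 1.6e-05). Xcr1, a receptor of cross-presenting dendritic cells, was higher by 0.91 (SE 0.22, limma adjusted p = 0.0036), with FVB arrays at 97 to 234.2 and transgenic arrays at 242.4 to 484.4, but at 0.54 (limma adjusted p = 0.123) it was not called without the 3 doubted FVB arrays.

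The other 3 tested receptors were not called with the sexes pooled. Cx3cr1, the fractalkine receptor of patrolling monocytes and macrophages, read 184.5 to 580.3 in FVB and 272.1 to 465.3 in transgenic hearts of 3 weeks (0.13, limma adjusted p = 0.615). The atypical receptor Ackr3, which also binds Cxcl12, read 1080 to 1497 and 663.2 to 1315 (-0.26, limma adjusted p = 0.214), and Ccrl2 differed by 0.15 (limma adjusted p = 0.565). Cx3cr1 was called without the 3 doubted FVB arrays (0.60, limma adjusted p = 0.0411). Ccr3, Ccr4 and Ccr8 met the rule for near background, with 16, 15 and 16 of 17 arrays at or under the floor.

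**Figure D3:**
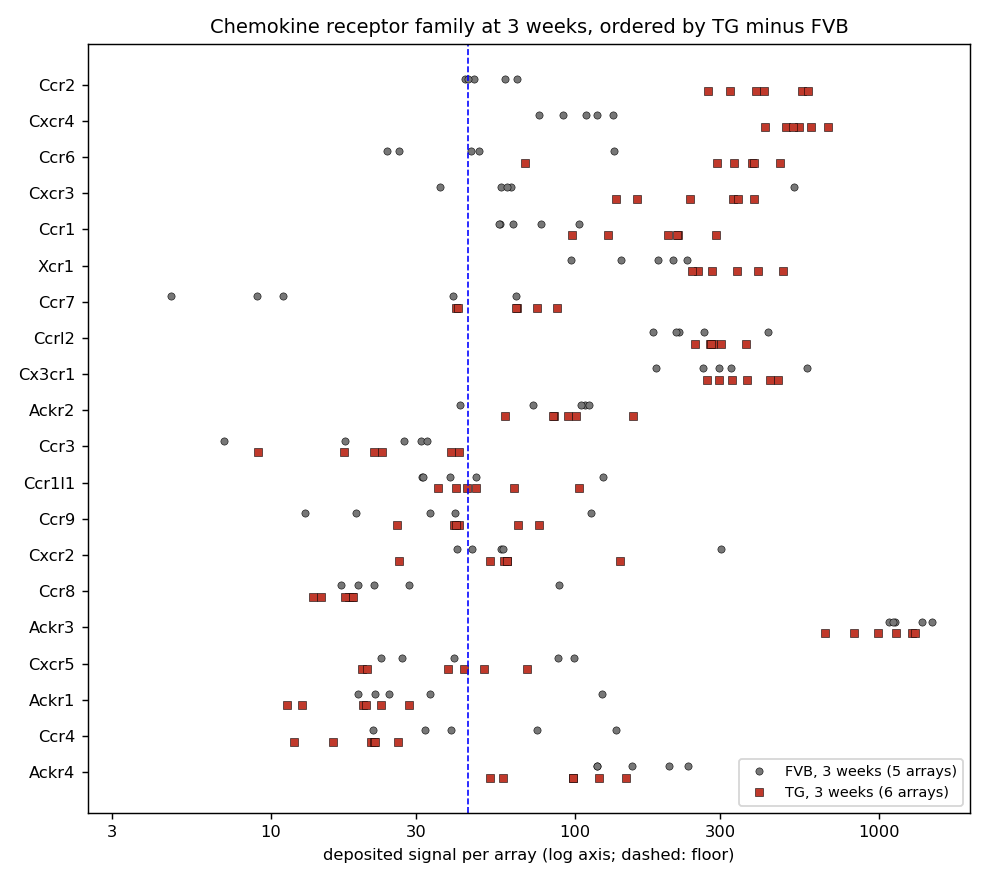
Deposited signal on each array of 3 weeks (log axis) for the 4 receptors and the 16 other measured chemokine receptors, ordered from the largest to the smallest transgenic minus FVB difference of mean log2 signal, with the floor as a dashed line. Ccr2 and Cxcr4 are separated from the FVB arrays, as 14.5% of tested probe sets were in this direction, whereas Ccr3, Ccr4 and Ccr8 lie mostly under the floor of 44.675.

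The ligands of Ccr1 and Ccr2 were higher in transgenic hearts of 3 weeks. All 4 tested ligands of Ccr1 were called higher (Ccl9, Ccl5, Ccl7 and Ccl6), and so were all 3 of Ccr2 (Ccl2, Ccl7 and Ccl12). The 24.7% of all probe sets called higher is the background, but the counts are a description: ranked on FVB arrays alone, 2 of the 4 ligands of Ccr1 and 0 of the 3 of Ccr2 would have passed the filter. Without the 3 doubted FVB arrays 3 of the 4 and 3 of the 3 were called higher. Ccl2, the main monocyte-recruiting ligand of Ccr2, read 24 to 83.6 on the FVB arrays and 2771 to 4533 on the transgenic arrays of 3 weeks (5.73, SE 0.24, limma adjusted p = 4.0e-11), with 2 of 5 FVB arrays at the floor, and differed by 5.48 without the 3 doubted FVB arrays. Ccl12, a mouse ligand of Ccr2, read 67.3 to 86.8 and 247.6 to 402.8 (1.99, SE 0.17, limma adjusted p = 1.4e-07). Ccl7, which binds both receptors, had 4 of 5 FVB arrays at the floor and read 446.1 to 558.6 in transgenic hearts (2.95, SE 0.28, limma adjusted p = 5.4e-07). The remaining FVB array, the outlying FVB female 1, read 184.6. Without the 3 doubted FVB arrays Ccl7 differed by 3.47.

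Among the ligands of Ccr1, Ccl9 read 184.2 to 514.9 in FVB and 6727 to 7834 in transgenic hearts of 3 weeks (4.43, SE 0.17, limma adjusted p = 2.6e-11). Ccl5, a ligand that also attracts T cells, lay at the floor in every FVB heart and read 898 to 3798 in transgenic hearts (at least 5.29, SE 0.23, limma adjusted p = 4.9e-11). Ccl5 was also the only gene of the ligand lists called with age: from 3 to 13 weeks in transgenic males it fell by 1.75 (SE 0.31, limma adjusted p = 0.0142). Ccl6 differed by 0.71 (SE 0.21, limma adjusted p = 0.0112), was not called with array weights (0.66, adjusted p = 0.0926) or without the 3 doubted FVB arrays (0.55, adjusted p = 0.0750), and Ccl3 read 63.8 to 156.1 in FVB and 56.5 to 116.3 in transgenic hearts and was not tested.

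The ligand of Cxcr4 gave no single answer. Cxcl12, a chemokine of stromal and endothelial cells, had 3 probe sets. The brightest (100112_at) read 1330 to 1710 in FVB and 1363 to 1955 in transgenic hearts of 3 weeks (0.10, SE 0.12, limma adjusted p = 0.504). Another probe set (160511_at) read 305.4 to 433 and 1139 to 2129 (2.31, SE 0.17, limma adjusted p = 3.5e-08). It was higher without overlap, as 14.5% of the tested probe sets were. The remaining probe set (162234_f_at) differed by -0.32 (SE 0.21, limma adjusted p = 0.211). The probe sets of Cxcl12 therefore disagree, and which transcripts each detects was not analysed here. Both probe sets of Mif, a further ligand of Cxcr4, met the rule for near background. None of the 4 listed ligands of Ccr7 was matched to a probe set with 1 symbol, and they were not analysed here.

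**Figure D4:**
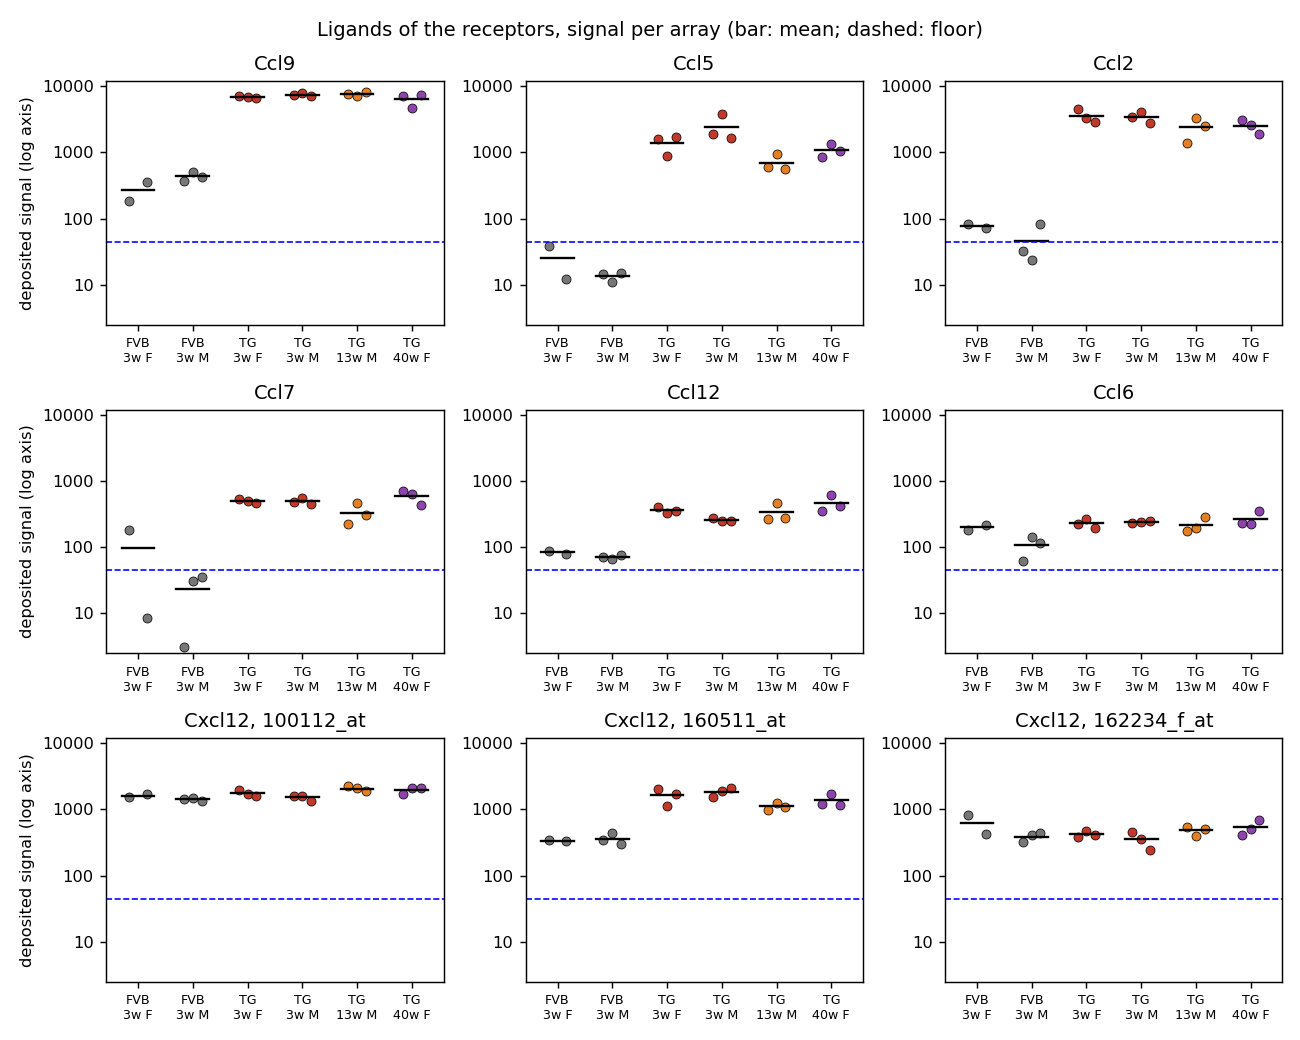
Deposited signal per array (log axis) by group for the tested ligands of Ccr1 and Ccr2 and for the 3 Cxcl12 probe sets, with the group mean as a bar and the floor as a dashed line. Ccl9, Ccl5, Ccl2, Ccl7 and Ccl12 are separated between FVB and transgenic arrays of 3 weeks, whereas of the Cxcl12 probe sets only 160511_at is. Of all tested probe sets, 14.5% were higher without overlap in this comparison.

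Genes through which chemokine receptors act were mostly higher too. Of 25 listed signalling genes, 16 were measured and 14 tested, and 13 were called higher and 1 lower at 3 weeks, with a median of 0.99, against 24.7% and 21.9% of all tested probe sets called higher and lower. On FVB arrays alone 12 of the 14 would have passed the filter. By labelled sex, 19.4% of all tested probe sets were called higher in females and 16.9% in males. In females 11 were called higher and in males 8, with 1 lower in males, and without the 3 doubted FVB arrays 11 were called higher and 1 lower, against 20.8% and 14.8% of all tested probe sets. Coro1a, an actin regulator of leukocytes, was higher by 2.67 (SE 0.15, limma adjusted p = 1.2e-09) and Vav1, a signalling protein of blood cells, by 2.68 (SE 0.27, limma adjusted p = 9.3e-07). Jak2, a cytokine receptor kinase, was higher by 1.46 (SE 0.17, limma adjusted p = 4.4e-06) and Was, the actin nucleation-promoting factor of blood cells, by 2.75 (SE 0.35, limma adjusted p = 1.1e-05). The gene called lower was Rgs2, which shortens G protein signalling (-0.93, limma adjusted p = 0.0117), named here after its value was seen. Among other leukocyte chemoattractant receptors, 7 of 10 were measured and 5 tested, with 1 called higher and 1 lower. Of these 5, 3 would have passed the filter on FVB arrays alone. C5ar1 (-0.09), C3ar1 (0.08) and Ptafr (0.56) were not called. Fpr2, a formyl peptide receptor of phagocytes, lay at the floor in every FVB heart and was higher by at least 4.80 (SE 0.21, limma adjusted p = 4.8e-11), then fell by 1.33 from 3 to 40 weeks in transgenic females (limma adjusted p = 0.0332), and S1pr1, the sphingosine 1-phosphate receptor of lymphocytes and endothelium, differed by -0.75 on its brighter probe set (SE 0.26, limma adjusted p = 0.0266). Without the 3 doubted FVB arrays 2 of the 5 were called higher and 0 lower.

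Markers of several blood cell types were higher along with the receptors, and their part in the result was not tested. The counts below stand against 24.7% of all tested probe sets called higher and 21.9% called lower. They are a description, because the filter leaned on the transgenic arrays. Ranked on FVB arrays alone, 9 of the 12 tested monocyte and macrophage markers and 2 of the 6 T cell markers would have passed. So would 4 of the 6 B cell, 3 of the 5 neutrophil and all 8 dendritic cell markers. In whole heart RNA, more cells of a type and more RNA per cell cannot be told apart. Of 16 monocyte and macrophage markers 14 were measured, 12 tested, 10 called higher and 1 lower, with a median of 2.47, and their summed signal was 4484 to 5565 on the FVB arrays, 28520 to 36526 on the transgenic arrays of 3 weeks, 27490 to 39065 at 13 weeks and 25058 to 32242 at 40 weeks. Itgb2, the leukocyte integrin beta chain, was higher by 4.17, Lyz2, lysozyme of macrophages, by 3.67, and Cd68 by 2.85 (all called in limma). The marker called lower was Fcgr1 (-0.76, limma adjusted p = 0.0102), and Mrc1 was not called (0.37, limma adjusted p = 0.215). Both are named here after their values were seen. No marker of this list lay at the floor in every array of any of these groups.

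Dendritic cell markers (10 of 11 measured, 8 tested) were called higher in 6 cases, with summed signals of 2484 to 4938 in FVB and 7305 to 9182 in transgenic hearts of 3 weeks. Xcr1, called higher, was counted both here and among the other chemokine receptors. T cell markers (12 of 14 measured, 6 tested) were called higher in all 6, with sums of 672.2 to 1406 and 2008 to 4257. By labelled sex, 2 of these 6 were called higher in females and all 6 in males. Of the 8 dendritic cell markers, 4 were called higher in females and 7 in males. The shares of all tested probe sets were 19.4% and 16.9%, and the sex difference was called for none of these markers. B cell markers (8 of 9 measured, 6 tested) were called higher in 2, with sums of 645.9 to 2279 and 1249 to 1911 that overlapped, and Cr2 lay at the floor on every array of both groups. Neutrophil markers (10 measured, 5 tested) were called higher in 3 and lower in 1, with overlapping sums of 668.1 to 2854 and 1399 to 2196. S100a8 (2.33), S100a9 (1.89) and Camp (1.40), which code for granulocyte proteins, were called higher and Elane, neutrophil elastase, lower (-1.21), while Ly6g and Ngp lay at the floor in every transgenic heart of 3 weeks. Thymocyte markers (5 of 7 measured, 3 tested) were called higher in 1 and lower in 1.

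Among the heart's own cell types, only cardiomyocyte markers were lower throughout. Cardiomyocyte markers (10 of 11 measured and tested) were all called lower, with a median of -1.02 and sums of 207730 to 337473 in FVB and 108215 to 214902 in transgenic hearts of 3 weeks. Endothelial markers (9 of 11 measured and tested) were called lower in 3 and higher in none. Their median was 0.08, with sums of 9542 to 17446 and 12495 to 14316. Fibroblast markers (8 measured and tested) were called higher in 4 and lower in 1, with a median of 0.42. Thy1, called higher, was counted both here and among the T cell markers. Without the 3 doubted FVB arrays the counts higher and lower were 10 and 1 for monocyte and macrophage, 6 and 0 for dendritic cell, 5 and 0 for T cell, 2 and 0 for B cell, 3 and 1 for neutrophil, 1 and 0 for thymocyte, 0 and 10 for cardiomyocyte, 0 and 2 for endothelial and 2 and 2 for fibroblast markers, against 20.8% and 14.8% of all tested probe sets. Every array was thus rich in cardiomyocyte transcripts, as the label of heart tissue states.

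Across the 17 arrays, Ccr2 and Cxcr4 followed each other closely on the log2 scale (Pearson r = 0.96), and Ccr1 followed Ccr2 at 0.80 and Cxcr4 at 0.80. These values mainly restate the difference between FVB and transgenic arrays, which all pairs share. Over the 12 transgenic arrays alone the value for Ccr2 and Cxcr4 was 0.20, and for Ccr1 it was 0.37 with Ccr2, 0.68 with Cxcr4 and 0.70 with Ccr7. The genes most like each receptor over all 17 arrays were Cxcl13 and Icam1 for Ccr2 (both 0.98), Icam1 and Litaf for Cxcr4 (0.99 and 0.98), Hmox1 and Dock5 for Ccr1 (both 0.94) and Derl2 for Ccr7 (0.85). Over the 12 transgenic arrays they were Mcm3ap and Krt20 for Ccr2 (both 0.85), Dipk2a and Hspa4l for Cxcr4 (0.91 and 0.90), Tes and Zfand2a for Ccr1 (0.97 and 0.93) and again Derl2 for Ccr7 (0.84). The likeness was ranked over 5699 genes, or 5700 for Ccr7, and is a description only.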

How the data were processed

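Heart RNA of 6 groups had been measured on Affymetrix U74Av2 arrays, 1 array per sample per the labels. Deposited values are linear intensities per probe set. Their trimmed means were 499.8 to 499.9 on every array, so the arrays had been brought to a common level before deposit. No source used here names the software or its settings. Columns of identical values were counted as 1 array. No further scaling was applied. After 66 control probe sets were left out, signals were floored at the 25th percentile (44.675) and taken as log2, and the 60% of probe sets with the highest mean (7453 of 12422) were tested with limma 3.58.1 under R 4.3.3 (lmFit, then eBayes, two-sided; a mean for each of 6 groups, 11 residual and 4.89 prior degrees of freedom). Female and male differences were averaged with equal weight for the pooled comparison at 3 weeks. P-values were adjusted by Benjamini-Hochberg over all tested probe sets and called at 0.05. The number of arrays limits the precision.

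Symbols came from the platform annotation, which can be old: 10833 probe sets had 1 symbol, 396 several and 1193 none, and 10821 of the first were held by a current RefSeq gene table. Where a gene had several probe sets, the brightest on average stood for it. The 4 receptors, the other chemokine receptors and the ligands could all be named, from other lists up to 4 genes of smallest p, and the 5 genes most correlated with each receptor were computed. The members and lists were chosen with earlier results of these data known. On simulated data, the fit of the transgene effect at 3 weeks over 7453 probe sets recovered 83% of 100 changes of 1 and 99% of 100 changes of 2 on the log2 scale, with 12 false calls. The simulated arrays had independent normal noise and no outlying array. They held far fewer changes than the 3474 probe sets called in the data, so these figures may not carry over. Alternatives covered scaling, floor, filter, variance model, array weights, groups in the fit, replicate block, the identical columns, each array left out and the 3 doubted FVB arrays left out. For Ccr1 and Cxcr4, upstream windows were read from RefSeq tables, which held no entry for Ccr7, and the window before Ccr2 lies inside its annotated gene span and was not used.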

Additional observations from a re-analysis of the deposited data

Results flagged for a closer look

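Within the FVB arrays and within the transgenic arrays of 3 weeks, sexes pooled, a highest or lowest array far from its neighbours was looked for in 58 gene and group pairs of receptors and ligands by Dixon's test at 95%, which chance flags in about 1 in 20 groups. It singled out 11, none of them Ccr1, Ccr2, Ccr7 or Cxcr4. In 9 of the 11 the array was FVB female 1, the array that stands apart. There the signal was 134.3 for Ccr6, 89.0 for Ccr8, 112.8 for Ccr9, 124.0 for Ccr1l1, 303.5 for Cxcr2, 523.8 for Cxcr3, 123.2 for Ackr1, 38.3 for Ccl5 and 184.6 for Ccl7, each the highest of the 5 FVB arrays. The Ccl5 value lies under the floor. Among the transgenic arrays of 3 weeks, Cxcr2 read 141.2 on male 1 and Ccl5 read 3797.7 on male 2, each the highest of 6.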

How the results depend on the processing

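The 3 tested receptors stayed called higher at 3 weeks under all 11 other settings and with each of the 17 arrays left out, Ccr2 between 1.85 and 3.04 and with arrays left out 2.86 to 3.12, Cxcr4 between 1.95 and 2.48 (2.28 to 2.53) and Ccr1 between 0.70 and 1.51 (1.17 to 1.45). Adjusted p-values here are limma's.

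Calls that changed were few. In females Ccr1 was called after quantile normalisation (1.25, adjusted p = 0.0102), and its range with arrays left out was 0.33 to 0.91, called without transgenic female 2 (0.91, adjusted p = 0.0486). The sex difference of the effect called 1 receptor only without FVB female 3 and 0 with any other array left out, with Ccr1 at -1.66 to -1.09. The 40 week change called 1 receptor with array weights (Ccr2, 0.97). For Ccr7, log2 of signal plus 50 gave 0.61 (exact permutation p = 0.0216), and values with an array left out were 0.25 to 0.46; with the floor at the 40th percentile all its values lay at the floor and no value was possible.

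Small uncalled differences changed sign. The sex difference of Cxcr4 was -0.21 with the floor at the 40th percentile, -0.069 with log2 of signal plus 50, -0.034 with the replicate block and -0.55 without the 3 doubted FVB arrays, and -0.25 to 0.27 with arrays left out. The difference between the changes with age for Ccr1 was -0.038 with array weights.

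With arrays left out, the change to 13 weeks of Cxcr4 was -0.19 to 0.0015, the change to 40 weeks was -0.44 to 0.14 for Ccr1 and -0.28 to 0.076 for Cxcr4, and the difference between these changes was -0.0049 to 0.57 for Ccr1 and -0.19 to 0.17 for Cxcr4. The cause of these changes was not tested.

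Replicate numbers were not taken to pair the arrays: deviations of same-numbered arrays correlated at -0.34 to 0.47 (40 pairs), those of other pairs at -0.38 to 0.33 (80 pairs), and the replicate block changed no other call. Bringing arrays to a common median moved the median of all probe sets from 0.04 to 0.39 for the sex difference, from 0.02 to 0.18 in females and from 0.0034 to -0.18 in males. Of 364 alternatives over 13 other receptors and ligands at 3 weeks, 356 kept their direction and call, and the 2 that reversed were both without FVB female 3: with arrays left out Ccrl2 was at -0.030 to 0.32 and Cx3cr1 at -0.11 to 0.38.

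Counts over all probe sets moved by over 1.5 times in places: in females 2587 fell to 699 with array weights and 1013 with only the groups compared, and was 1446 without FVB female 1 and 1361 without the 3 doubted FVB arrays, the sex difference went from 0 to 6 (quantile), 17 (common median), 3 (40th percentile floor), 91 (no filter) and 155 (both identical columns kept), the 13 week change from 39 to 80 with array weights and to 14 without transgenic male 2 or 3 of 13 weeks, and the 40 week change from 50 to 77 with no filter and 803 with array weights.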
